A study of Mus musculus with 18 samples.

Results

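The genes of cholesterol and fatty acid synthesis described here are 30 genes chosen by name for their place in these pathways, out of 19153 genes with values in 18 RNA-seq libraries of mouse myoblasts. They comprise 7 enzymes of the mevalonate pathway before squalene, 11 enzymes from squalene to cholesterol, 5 genes of the system that senses sterols, 1 sterol carrier and 6 enzymes that make or modify fatty acids. Each of the 30 was found in the files and was tested. The cells were immortalized myoblasts, and both genotypes, wildtype (WT) and LAP2alpha knockout (KO), also carry a p53 knockout. The KO cells were made with Cas9 and a guide RNA and sorted in bulk, so they are not a single clone, and the WT cells received the empty vector. Proliferating cells (Prol) and cells at confluence (D0) were kept in 20% fetal calf serum, and cells at day 2 of differentiation (D2) had been in 5% fetal calf serum for 48 h. Each of the 6 groups of genotype and state had 3 replicate libraries, and the labels do not say whether these came from separate cultures, so p-values measure the spread between these libraries, which may be technical.

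Cells make cholesterol from acetyl-CoA through mevalonate, farnesyl diphosphate, squalene and lanosterol, and the same acetyl-CoA feeds fatty acid synthesis. The membrane-bound transcription factors SREBP1 and SREBP2, encoded by Srebf1 and Srebf2, are carried from the endoplasmic reticulum to the Golgi by Scap and cut there, and the released part activates genes of both pathways. Insig proteins hold the complex of Scap and SREBP back when sterols are plentiful, and serum lipoproteins are a source of cholesterol for cultured cells.

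Library totals were 26437823 to 41619014 expected counts (median 32939620), and 3 counts corresponded to 0.0651 to 0.119 CPM, far under the lowest value of any of the 30 genes. Values are given as the deposited CPM, normalised to library size. Tmpo, the gene that encodes LAP2alpha among other isoforms, was counted over all isoforms, and its KO/WT log2 fold change of -0.28 ± 0.21 (SE) in Prol did not pass the test (adjusted p = 1.0, limma), so gene-level values do not check the KO label. The summed level of 6 genes of early differentiating muscle, among them Myog and Myh3, was 2.29 to 28.4 CPM in the 12 libraries of Prol and D0, 2463 to 5048 CPM in WT D2 and 1466 to 1866 CPM in KO D2. The sum of 6 proliferation genes, among them Mki67, was 1132 to 1959 CPM before D2 and 179 to 342 CPM at D2. The myoblast markers did not move as one: Myod1, Des, Cdh15 and Chrna1 rose from D0 to D2 in both genotypes, Myod1 from 1.53 to 3.76 CPM at D0 to 47.7 to 99.7 CPM at D2, while Myf5 was at 23.8 to 37.1 CPM at D0 and 11.6 to 29.6 CPM at D2 and fell in WT (adjusted p = 0.0497, limma). Pax7 was not analysed here. Serum reduction, exit from proliferation and differentiation come together at D2 and cannot be told apart in this design, and neither can a change in RNA per cell and a change in the kinds of cells.

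From D0 to D2, genes of cholesterol synthesis rose together in both genotypes, while the enzymes that build the fatty acid chain did not pass the test. Of the 30 genes, 22 rose in WT and none fell, against 14.7% of all 17672 genes tested that rose and 11.3% that fell (limma on log2 CPM, Benjamini-Hochberg adjusted p under 0.05). In KO, 25 of the 30 rose and none fell, against 15.3% and 12.9% of all genes. The median log2 fold change of the 30 genes was 1.45 in WT and 1.60 in KO, and that of all genes was 0.001 and 0.056. The D2 libraries lay above every D0 library for 25 of the 30 genes in WT and 25 in KO, against 18.7% and 20.2% of all genes. These counts rest in part on the replicate 3 libraries. When replicate 3 was left out of all 6 groups, 10 of the 30 genes passed in WT and 14 in KO, beside 4.91% and 5.4% of all genes, and the median log2 fold changes were 1.38 and 1.52. The call rule of the study's methods (unadjusted p under 0.05, log2 fold change over 1.5, at least 10 CPM) was applied to the fit used here, which is not the study's own. With this rule, 13 genes passed as higher in WT and 16 in KO, beside 4.1% and 4.18% of all genes.

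**Figure D1:**
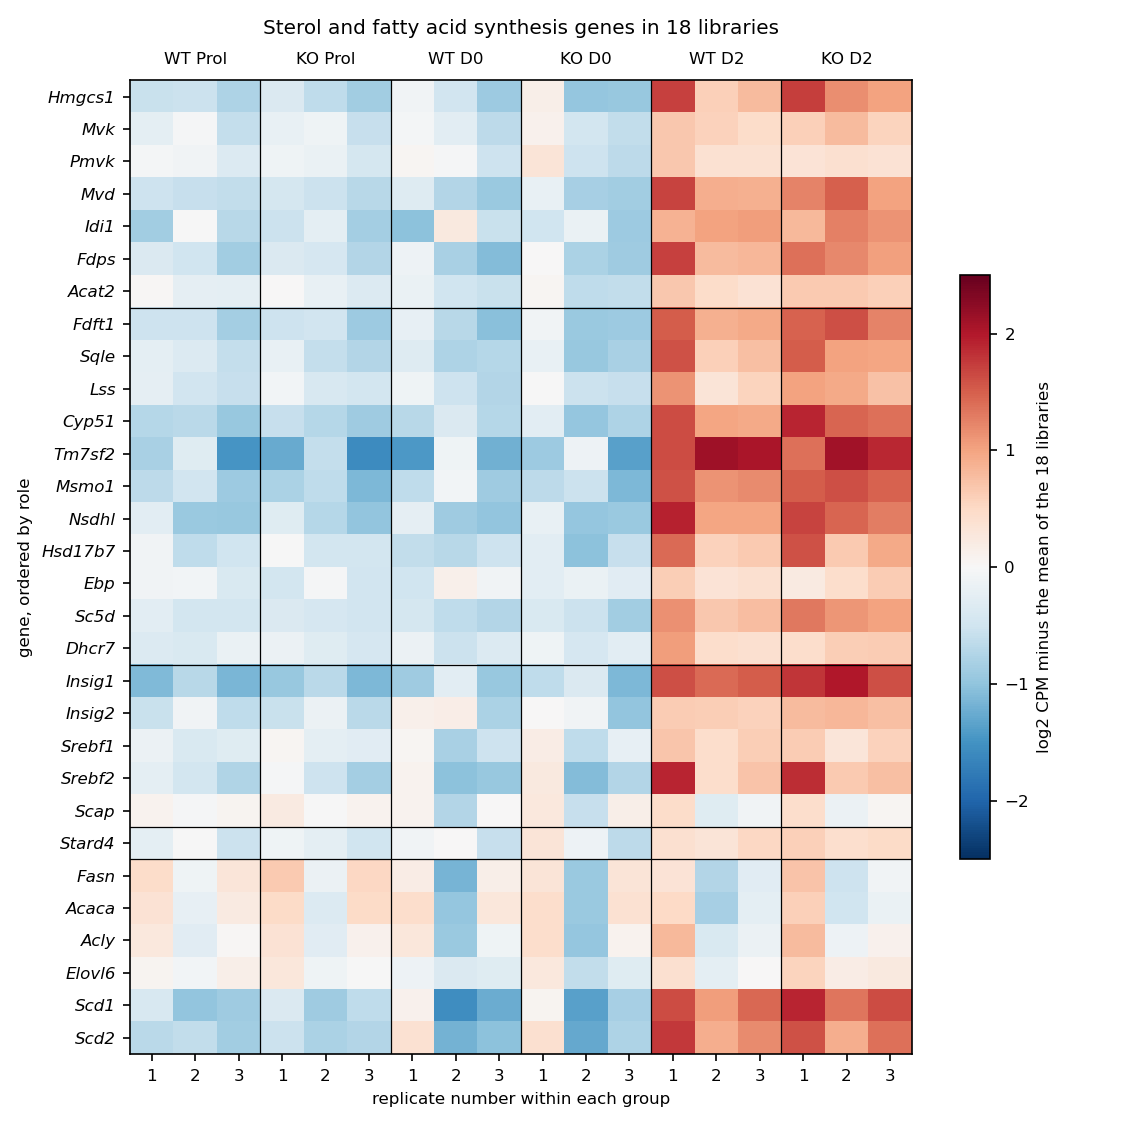
Heat map of log2 CPM of each of the 30 genes (rows, ordered by role) in each of the 18 libraries (columns, by group and replicate number), minus the mean of the gene over the 18 libraries. The 6 D2 libraries are red for the genes of cholesterol synthesis and for Scd1 and Scd2, whereas Fasn, Acaca and Acly are not uniformly higher at D2.

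**Figure D2:**
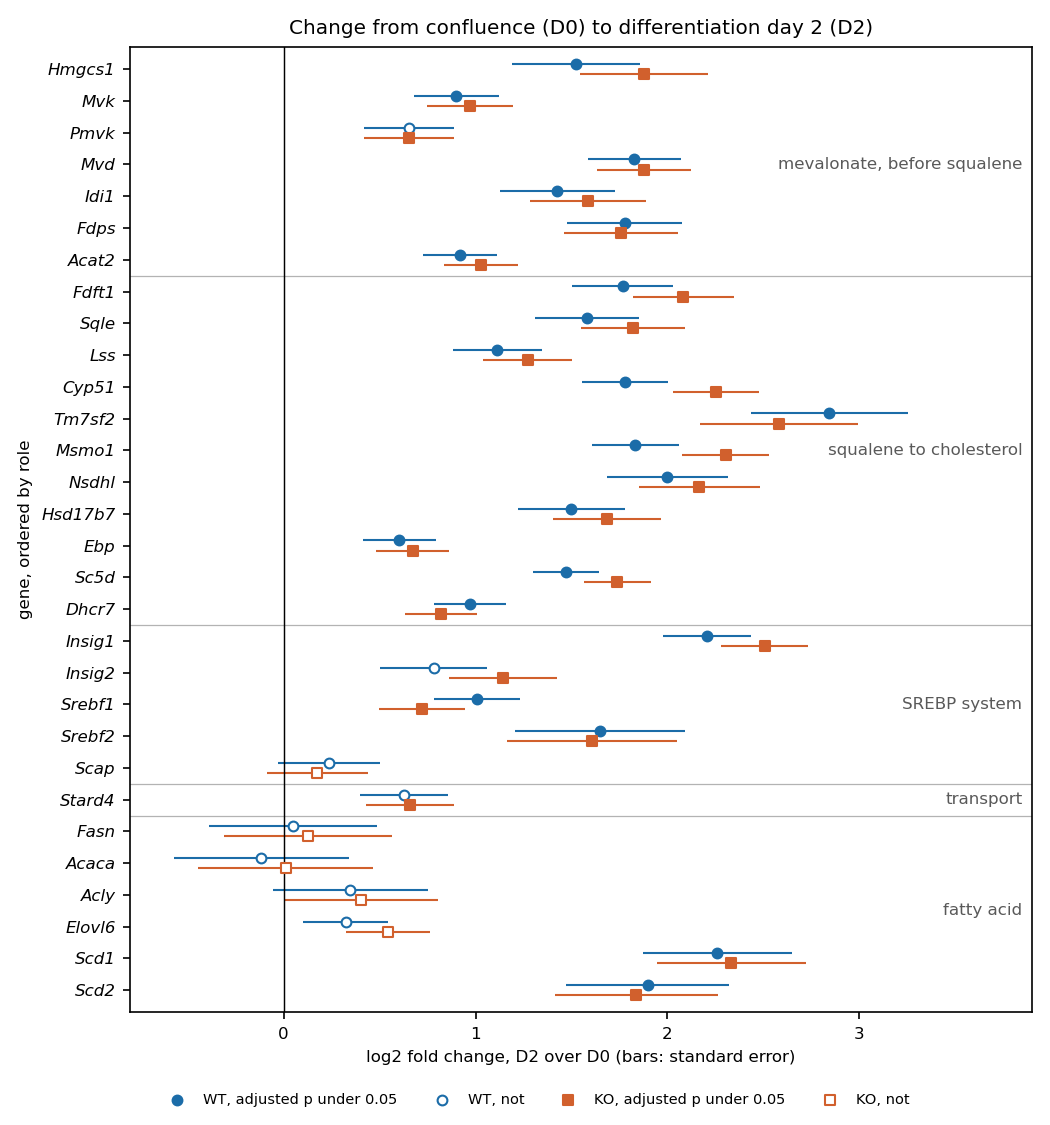
Log2 fold change from D0 to D2 (horizontal axis) of each of the 30 genes (vertical axis, ordered by role) in WT (circles) and KO (squares), with standard errors as bars. Filled symbols passed the test, 22 in WT and 25 in KO, and the largest value was 2.84 for Tm7sf2 in WT.

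The regions just before the start of these genes are shown for 3 genes that rose and for Fasn, which did not pass the test, because SREBPs act at promoters together with the CCAAT-binding factor NF-Y. RefSeq windows on GRCm38.p6, from 250 bases before to 50 bases after each annotated start, were found for 24 of the 30 genes (32 windows). Fdps, Fdft1, Sqle, Scd1, Scd2 and Stard4 were not matched. The 250 bases before the start are printed 5′ to 3′ on the strand of the gene. Capitals mark matches on either strand to CCAAT, the letters bound by NF-Y, to the sterol response element TCACNCCAC, and to the E-box CACGTG, which SREBP1 can also bind.
Hmgcs1 (chr13:119690101-119690350, plus strand): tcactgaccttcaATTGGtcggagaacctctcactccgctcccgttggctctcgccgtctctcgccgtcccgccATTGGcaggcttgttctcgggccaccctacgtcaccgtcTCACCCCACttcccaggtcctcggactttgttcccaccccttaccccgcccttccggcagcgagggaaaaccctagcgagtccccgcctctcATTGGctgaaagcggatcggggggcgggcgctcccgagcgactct
Msmo1 (chr8:64733579-64733828, minus strand): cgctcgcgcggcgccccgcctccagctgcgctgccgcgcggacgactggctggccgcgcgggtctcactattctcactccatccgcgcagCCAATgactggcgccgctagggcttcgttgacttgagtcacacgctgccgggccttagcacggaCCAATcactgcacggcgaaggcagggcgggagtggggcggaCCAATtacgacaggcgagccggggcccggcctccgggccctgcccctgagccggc
Insig1 (chr5:28071162-28071411, plus strand): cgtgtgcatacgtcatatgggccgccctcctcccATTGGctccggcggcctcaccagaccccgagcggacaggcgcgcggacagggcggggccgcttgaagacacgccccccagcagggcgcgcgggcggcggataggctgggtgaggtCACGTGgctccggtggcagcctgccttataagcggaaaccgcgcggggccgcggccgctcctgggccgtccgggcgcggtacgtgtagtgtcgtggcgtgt
Fasn (chr11:120824548-120824797, minus strand): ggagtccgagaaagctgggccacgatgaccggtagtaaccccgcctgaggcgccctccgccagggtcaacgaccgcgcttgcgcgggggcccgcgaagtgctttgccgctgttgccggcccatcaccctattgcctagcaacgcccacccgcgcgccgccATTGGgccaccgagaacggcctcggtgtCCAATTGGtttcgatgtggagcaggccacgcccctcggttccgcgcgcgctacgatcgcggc

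A CCAAT match was present in 20 of the 24 genes (83.3%), and in 41.1% of the 27025 genes with a window, where a match in any window of a gene counted. By window, a CCAAT match was present in 65.6% of the 32 windows, against 37.4% of all windows. It was present in 14 of 15 enzymes of sterol synthesis, where Acat2 lacked it, and in 4 of 5 genes of the sensing system, where Scap lacked it. Of the 4 fatty acid genes with a window, Fasn and Acly had a match, and Acaca and Elovl6 had none. The only Acaca window (chr11:84195188-84195487) lies inside the gene, which begins at 84129672 on the plus strand, so the region before that first position was not searched. The E-box was found in 5 of the 24 genes (20.8%) and in 8.09% of all genes. The sterol response element letters were found only in Hmgcs1 among the 24 genes (4.17%), 137 bases before the start, and in 1.44% of all genes. Matches had to be exact apart from the N, so elements with other letters were not counted. The Hmgcs1 window had 4 CCAAT matches, 3 of them in the printed bases, and the Msmo1 window had 3. In Fasn, 1 pair of CCAAT matches on opposite strands overlapped, and no other matches overlapped in the windows of the 24 genes. Having a match did not separate the genes that rose from Fasn and Acly, and the letters say nothing of whether a factor was bound. The 3 motifs were chosen after the fold changes were known.

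**Figure D3:**
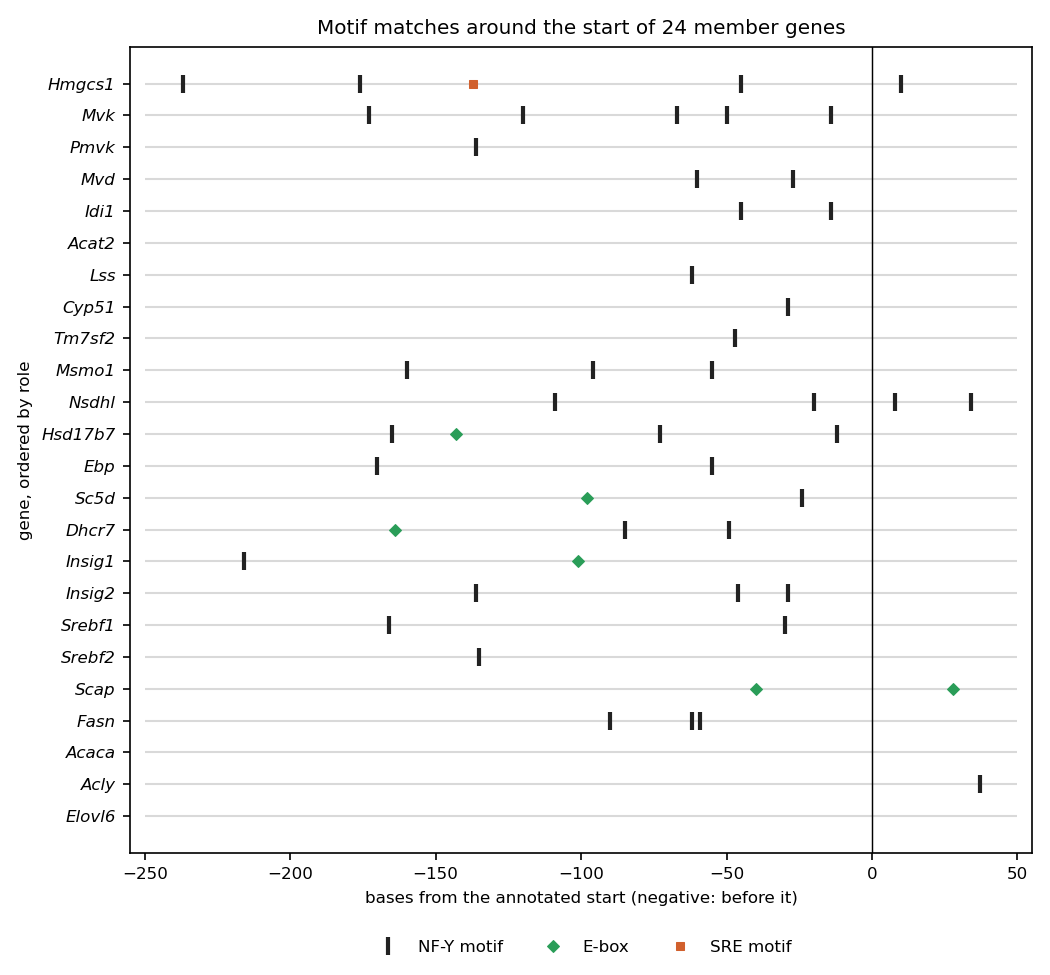
Position of each match to the NF-Y, E-box and SRE motifs (horizontal axis, bases from the annotated start, negative before it) in the windows of 24 genes (vertical axis, ordered by role). Where a gene has several annotated starts, the matches of each window are drawn relative to its own start. CCAAT matches are found in 20 of the 24 genes.

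Of the 7 enzymes before squalene, 6 rose from D0 to D2 in WT and 7 in KO. Hmgcs1, the synthase that makes HMG-CoA, lies on chromosome 13 (GRCm38, 119690379 to 119708260). It was at 88.0, 66.7 and 49.4 CPM in the WT D0 libraries and at 305, 140 and 161 CPM in WT D2. In KO it was at 103, 47.9 and 48.5 CPM at D0 and at 307, 207 and 187 CPM at D2. The D2 libraries of each genotype were above all of its D0 libraries, and replicate 1 was the highest of its group at D0 and at D2. The log2 fold change of Hmgcs1 was 1.52 ± 0.33 (SE, n = 3) in WT (adjusted p = 0.00306) and 1.88 ± 0.33 in KO (adjusted p = 0.00055), and the call in WT was lost without replicate 3 in all groups (adjusted p = 0.101).

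Mvd, the decarboxylase that yields isopentenyl diphosphate, was at 15.5, 11.7 and 10.3 CPM in WT D0 and at 63.0, 36.7 and 36.1 CPM in WT D2. In KO, Mvd was at 17.1, 10.99 and 10.6 CPM at D0 and at 46.1, 54.98 and 39.2 CPM at D2. No library of D0 reached any library of D2. Its log2 fold change was 1.83 ± 0.24 (SE) in WT (adjusted p = 4.85e-05) and 1.88 ± 0.24 in KO (adjusted p = 3.48e-05). Fdps, which makes farnesyl diphosphate, was at 68.9, 43.0 and 35.4 CPM in WT D0 and at 245, 129 and 133 CPM in WT D2. The KO libraries of Fdps were at 76.0, 43.3 and 40.6 CPM at D0 and at 196, 173 and 152 CPM at D2, again without overlap. The log2 fold change was 1.78 ± 0.30 (SE) in WT and 1.76 ± 0.30 in KO. Idi1, the isopentenyl diphosphate isomerase, rose by 1.43 and 1.59 on the log2 scale in WT and KO, Acat2, the thiolase of the first step, by 0.92 and 1.03, and Mvk, mevalonate kinase, by 0.90 and 0.97. Without replicate 3 in all groups, Idi1, Acat2 and Mvk passed in neither genotype (adjusted p = 0.0759 to 0.124), without replicate 2 Acat2 and Mvk did not (0.0507 to 0.101), and Mvk in WT also did not pass in a fit of only the 2 groups compared (0.0531). Pmvk, phosphomevalonate kinase, had the smallest difference of the group, 0.65 ± 0.24 (SE) in WT (adjusted p = 0.0515) and 0.65 ± 0.24 in KO (adjusted p = 0.0485), so that differences of the same size lay on either side of the threshold.

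All 11 enzymes from squalene to cholesterol rose from D0 to D2 in both genotypes. Tm7sf2, a sterol reductase, had the largest log2 fold change among the 30 genes, from low levels. It was at 2.17, 5.49 and 2.58 CPM in WT D0 and at 18.3, 25.7 and 24.2 CPM in WT D2. In KO, Tm7sf2 was at 3.17, 5.45 and 2.31 CPM at D0 and at 15.3, 25.4 and 21.96 CPM at D2. Replicate 2 was the highest library of each of these 4 groups, and D0 and D2 did not overlap. The log2 fold change of Tm7sf2 was 2.84 ± 0.41 (SE) in WT (adjusted p = 9.98e-05) and 2.58 ± 0.41 in KO (adjusted p = 0.00022).

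Msmo1, the oxidase that starts removal of the methyl groups of lanosterol derivatives, was at 41.8, 62.1 and 34.97 CPM in WT D0 and at 196, 143 and 147 CPM in WT D2. In KO it was at 41.4, 44.97 and 29.98 CPM at D0 and at 187, 199 and 181 CPM at D2. The 3 KO D2 libraries were close to each other, and the WT D2 libraries of replicates 2 and 3 were below them. Msmo1 rose by 1.83 ± 0.23 (SE) on the log2 scale in WT (adjusted p = 2.48e-05) and by 2.30 ± 0.23 in KO (adjusted p = 3.82e-06). Nsdhl, a dehydrogenase of the same demethylation, was at 10.1, 6.42 and 5.96 CPM in WT D0 and at 44.96, 23.5 and 23.4 CPM in WT D2. The KO libraries of Nsdhl were at 10.4, 6.08 and 6.25 CPM at D0 and at 38.1, 32.4 and 28.9 CPM at D2. Replicate 1 was the highest of each group for Nsdhl, and its log2 fold changes were 2.00 ± 0.31 and 2.17 ± 0.31 (SE).

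The other 8 enzymes of this stretch had log2 fold changes of 0.60 to 1.78 (WT) and 0.67 to 2.25 (KO). At the upper end were Fdft1, squalene synthase (1.77 in WT and 2.08 in KO), and Cyp51, the lanosterol demethylase (1.78 and 2.25). Sqle, squalene epoxidase, rose by 1.58 and 1.82, and Lss, lanosterol synthase, by 1.11 and 1.27. At the lower end were Dhcr7, the reductase of the last step to cholesterol (0.97 and 0.82), and Ebp, a sterol isomerase (0.60 ± 0.19 and 0.67 ± 0.19, SE). Dhcr7 did not pass without replicate 3 in all groups (adjusted p = 0.0558 in WT and 0.14 in KO), in KO without replicate 2 (0.0905) and in WT in a fit of only the 2 groups compared (0.0549). Lss and Hsd17b7 in WT did not pass without replicate 3 in all groups (adjusted p = 0.111 and 0.0512). The Ebp call in WT was lost without D0 replicate 1 (adjusted p = 0.111), without D0 replicate 3 (0.0619), without D2 replicate 1 (0.0852) and without D2 replicate 3 (0.0611), and in KO it was lost without D0 replicate 3 (0.0537) and without D2 replicate 3 (0.0675). In a fit of only the D0 and D2 libraries of a genotype, neither Ebp call was kept (adjusted p = 0.173 and 0.0817).

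In the sensing system, 3 of 5 genes rose from D0 to D2 in WT and 4 in KO, and Insig1 had the largest rise. It was at 30.8, 47.5 and 29.4 CPM in WT D0 and at 173, 152 and 161 CPM in WT D2. In KO, Insig1 was at 36.4, 44.1 and 26.1 CPM at D0 and at 195, 229 and 173 CPM at D2. The groups were far apart in each genotype. The log2 fold change was 2.21 ± 0.23 (SE) in WT (adjusted p = 5.1e-06) and 2.51 ± 0.23 in KO (adjusted p = 2.17e-06), and both calls were kept under every alternative tried, with a highest adjusted p of 0.00391 and 0.00253. Insig2, its relative, was at 40.5, 41.3 and 21.2 CPM in WT D0 and at 57.4, 56.9 and 55.3 CPM in WT D2, a log2 difference of 0.78 ± 0.28 that missed the threshold (adjusted p = 0.0504). In KO it was at 37.1, 34.7 and 18.7 CPM at D0 and at 63.9, 65.6 and 62.0 CPM at D2. Insig2 passed the test there, with a log2 fold change of 1.14 ± 0.28 (SE; adjusted p = 0.00603, and 0.0737 without replicate 3 in all groups), and the difference between the genotypes in this change was 0.36 (adjusted p = 1.0, limma).

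Srebf2, the SREBP most tied to sterol genes, was at 151, 70.0 and 73.3 CPM in WT D0 and at 532, 193 and 233 CPM in WT D2. In KO, Srebf2 was at 169, 66.6 and 85.3 CPM at D0 and at 513, 223 and 237 CPM at D2. Replicate 1 was more than 2 times as high as the other replicates at D2 in both genotypes. Its log2 fold change was 1.65 ± 0.44 (SE) in WT (adjusted p = 0.0119) and 1.61 ± 0.44 in KO (adjusted p = 0.0127). Without D2 replicate 1, it was 1.21 in WT (adjusted p = 0.0576) and 1.22 in KO (adjusted p = 0.0626), and the calls were also lost without D0 replicate 3 in WT (adjusted p = 0.0574) and without D0 replicate 2 or 3 in KO (adjusted p = 0.0532 and 0.054). In a fit of only the 2 groups compared, Srebf2 in WT had an adjusted p of 0.0531.

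Srebf1 was at 74.9, 41.4 and 50.8 CPM in WT D0 and at 117, 97.9 and 111 CPM in WT D2. The KO libraries of Srebf1 were at 82.0, 46.7 and 62.6 CPM at D0 and at 112, 89.3 and 108 CPM at D2. D2 was above D0 without overlap, and the change was smaller than that of Srebf2, 1.01 ± 0.23 (SE; adjusted p = 0.00369) in WT and 0.72 ± 0.23 (adjusted p = 0.0249) in KO, without a test between the genes. The KO call of Srebf1 was lost without D0 replicate 2 (adjusted p = 0.104) or 3 (0.0679), and without D2 replicate 1 (0.0709) or 3 (0.0712), and in the fit of only the 2 groups compared Srebf1 passed in neither genotype (adjusted p = 0.0529 and 0.102). Scap, the carrier of SREBP, was at 48.0, 27.01 and 45.2 CPM in WT D0 and at 62.3, 36.4 and 42.4 CPM in WT D2. In KO, Scap was at 54.2, 30.2 and 49.7 CPM at D0 and at 61.1, 41.0 and 46.9 CPM at D2. Its groups overlapped, and the log2 differences of 0.24 ± 0.27 (SE) and 0.18 ± 0.27 did not pass the test (adjusted p = 0.563 and 0.665).

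Stard4, a soluble carrier that moves sterols between membranes, was at 28.7, 30.7 and 20.4 CPM in WT D0 and at 40.1, 38.1 and 43.4 CPM in WT D2. In KO it was at 37.7, 27.7 and 19.2 CPM at D0 and at 45.8, 40.6 and 42.3 CPM at D2. Stard4 lay at the threshold, with a log2 difference of 0.63 ± 0.23 (SE; adjusted p = 0.0549) in WT and 0.66 ± 0.23 (adjusted p = 0.0428) in KO. The KO call of Stard4 and that of Pmvk were each lost without any 1 of D0 replicates 2 and 3 and D2 replicates 1, 2 and 3, and with median-of-ratios scaling (adjusted p = 0.0507 and 0.0543).

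The 6 fatty acid genes divided between the desaturases and the rest, a division drawn after the values were seen. Scd1, a desaturase that makes oleate and palmitoleate, was at 95.3, 30.5 and 37.9 CPM in WT D0 and at 275, 183 and 240 CPM in WT D2. In KO, Scd1 was at 93.4, 34.8 and 49.8 CPM at D0 and at 334, 224 and 276 CPM at D2. Replicate 1 was the highest library of each group, and D0 and D2 did not overlap. Scd1 rose by 2.26 ± 0.39 (SE) on the log2 scale in WT (adjusted p = 0.000445) and by 2.33 ± 0.39 in KO (adjusted p = 0.000319). Scd2, a desaturase of the same reaction, was at 928, 313 and 350 CPM in WT D0 and at 2431, 1340 and 1611 CPM in WT D2. The KO libraries of Scd2 were at 939.9, 296 and 421 CPM at D0 and at 2166, 1336 and 1847 CPM at D2. The rise of Scd2 was 1.90 ± 0.42 (SE; adjusted p = 0.0036) in WT and 1.84 ± 0.42 (adjusted p = 0.00406) in KO. Without replicate 3 in all groups, Scd2 passed in neither genotype (adjusted p = 0.172 and 0.165) and Scd1 did not pass in WT (0.0759). The 2 genes are similar in sequence, and RSEM divided reads that match both, so their split carries an error that was not measured.

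Fasn, the fatty acid synthase, was at 356, 139 and 347 CPM in WT D0 and at 396, 188 and 257 CPM in WT D2. In KO, Fasn was at 389.5, 165 and 391 CPM at D0 and at 514, 218 and 293 CPM at D2. The groups overlapped, and replicate 2 was the lowest library of each. The log2 difference was 0.05 ± 0.44 (SE; adjusted p = 0.951) in WT, with a 95% confidence interval from -0.88 to 0.98, and 0.13 ± 0.44 (adjusted p = 0.859) in KO, with an interval from -0.80 to 1.06. A change of the size seen for Hmgcs1 lay outside these intervals, and changes of the size seen for Mvk, Acat2, Dhcr7 and Ebp lay inside them. No test between the genes was run. The sign for Fasn turned when single libraries were left out, to -0.395 without WT D0 replicate 2 and to -0.285 without KO D0 replicate 2.

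Acaca, the acetyl-CoA carboxylase, was the gene with a difference below 0 in WT. It was at 142, 53.0 and 127 CPM in WT D0 and at 148, 58.4 and 87.5 CPM in WT D2. In KO, Acaca was at 142, 54.8 and 136 CPM at D0 and at 157, 73.6 and 93.3 CPM at D2. The log2 difference was -0.12 ± 0.46 (SE; adjusted p = 0.889) in WT and 0.01 ± 0.46 (adjusted p = 0.991) in KO, with libraries of D0 and D2 interleaved. Acly, which supplies cytosolic acetyl-CoA from citrate, was at 244, 105 and 186 CPM in WT D0 and at 355, 154 and 180 CPM in WT D2. The KO libraries of Acly were at 272, 102 and 213 CPM at D0 and at 346, 184 and 215 CPM at D2. Its log2 differences were 0.35 ± 0.40 (SE) in WT and 0.40 ± 0.40 in KO (adjusted p = 0.581 and 0.495). Elovl6, the elongase of palmitate, differed by 0.32 ± 0.22 in WT (adjusted p = 0.314) and by 0.55 ± 0.22 in KO (adjusted p = 0.0772). With the replicate number as a block, Elovl6 passed in KO (adjusted p = 0.00355). The 95% confidence intervals in WT reached from -1.08 to 0.85 for Acaca and from -0.505 to 1.201 for Acly, and each held a change of 2 times in 1 direction.

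**Figure D4:**
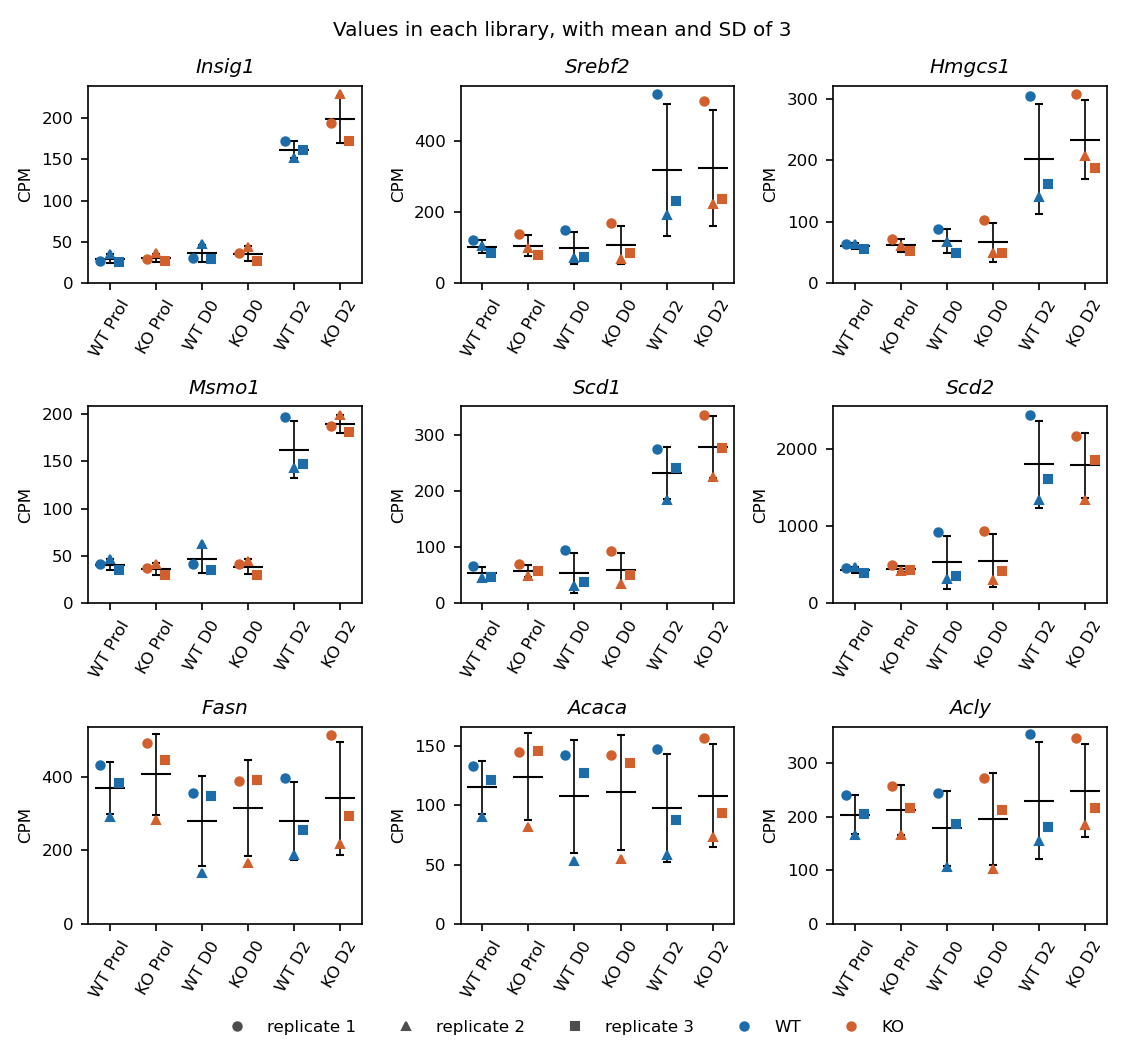
CPM of 9 of the genes in each library (vertical axes, starting at 0) by group (horizontal axes). Marker shapes give the replicate number, colours the genotype, and black bars the mean and SD of 3 libraries. Insig1 and Msmo1 are separated between D2 and the other states in every library, Srebf2 has its 2 highest values in replicate 1 at D2, and Fasn, Acaca and Acly overlap between all groups.

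The replicate number moved with the level of the 30 genes. Replicate 1 was the highest library for 27 of the 30 genes in WT D2, 19 in KO D2, 21 in WT D0 and 24 in KO D0. In Prol it was the highest for 17 in WT and 21 in KO. The same count was not made over all genes, so this is not shown to be particular to the 30. The D2 libraries of replicate 1 also had scaling factors of 0.909 and 0.931, against 1.11 to 1.18 in the other 4 D2 libraries. The part of this in the values was not tested. Without replicate 1 at D2 in both genotypes, the median log2 fold changes of the 30 genes from D0 to D2 were 1.19 (WT) and 1.32 (KO). Scaled to library totals alone, the median of all genes in D2/D0 shifted by 0.13 (WT) and 0.11 (KO), to 0.13 and 0.166. The medians of the 30 genes were then 1.58 and 1.71. Markers of other cells were examined as well. The summed level of 4 fibroblast genes, Pdgfra, Dcn, Lum and Thy1 (the last under 2 CPM throughout), was 13.2 to 77.5 CPM before D2 and 121 to 306 CPM at D2, and its part in the result was not tested. Of 6 adipocyte genes, 3 were analysed, and Plin1 and Cidec were under 1 CPM in all libraries, while Fabp4 was at 0.759 to 30.8 CPM, with no D2 library above the highest library of Prol and D0.

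D2 was also compared with Prol. In WT, 25 of the 30 genes were higher at D2 than in Prol and none was lower, against 16.6% and 14.1% of all genes. In KO, 24 were higher and none lower, against 17.1% and 15.2%. The D2 libraries lay above every Prol library for 25 of the 30 genes in each genotype, against 23% of all genes in WT and 25.1% in KO. Without replicate 3 in all groups, 12 genes passed in WT and 14 in KO, beside 6.88% and 7.62% of all genes. With the call rule of the study's methods, 13 passed in WT and 15 in KO, beside 4.41% and 4.65% of all genes. The comparisons share their D2 libraries with those against D0. The median log2 fold changes were 1.28 and 1.46, and 22 genes passed in all 4 comparisons of D2. Insig1 was higher by 2.49 ± 0.23 (SE) in WT and by 2.71 ± 0.23 in KO, Msmo1 by 1.98 ± 0.23 and 2.39 ± 0.23, and Scd1 by 2.13 ± 0.39 and 2.25 ± 0.39. Fasn had differences of -0.45 ± 0.44 in WT and -0.31 ± 0.44 in KO, Acaca of -0.32 ± 0.46 and -0.23 ± 0.46, and neither passed the test (adjusted p = 0.492 to 0.758). With the replicate number as a block, Pmvk also passed in KO (adjusted p = 0.00844, against 0.0585 without it). Fasn, Acaca, Acly, Elovl6 and Scap passed in none of the 4 comparisons.

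Between Prol and D0, when cells reached confluence in unchanged serum, none of the 30 genes passed the test in either genotype, against 0.00566% of all genes in WT and 0% in KO. No member had an unadjusted p under 0.05 with limma, while 384 (2.17%) and 198 (1.12%) of all genes did, and the fit with voom weights gave 0 calls as well. The log2 differences lay between -0.50 and 0.28 for WT and between -0.43 and 0.35 for KO, with medians of -0.05 and -0.04. Insig1 was at 26.4, 35.3 and 25.7 CPM in WT Prol, overlapping its D0 libraries, and its log2 difference was 0.28 ± 0.23 (SE). Elovl6 was the only gene of the 30 whose WT libraries did not overlap, at 61.3, 55.7 and 64.5 CPM in Prol and 53.3, 45.4 and 47.6 CPM in D0 (2.82% of all genes were lower without overlap), and its log2 difference of -0.31 ± 0.22 had a p of 0.178 (limma). With a block for the replicate number, 3 genes in WT (Fasn, Elovl6 and Acat2) and 1 in KO (Fasn) had an unadjusted p under 0.05, and none passed after adjustment (adjusted p = 0.701 to 0.98, limma).

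KO and WT were compared in each state to ask whether loss of LAP2alpha was accompanied by a difference in these genes. None of the 30 passed in Prol, D0 or D2, against 0.00566%, 0% and 0% of all genes, and none had an unadjusted p under 0.05 with limma, while 196 (1.11%), 260 (1.47%) and 346 (1.96%) of all genes did. The fit with voom weights also made 0 calls among the 30. Since almost no gene of any kind passed in these comparisons, 0 calls among 30 genes say little about them. The paper, with its own fit, a lane block and unadjusted p-values, reported genes that differed between KO and WT in Prol and at D2. Here the log2 differences of the 30 genes ran from -0.28 to 0.13 in Prol, from -0.23 to 0.20 at D0 and from -0.14 to 0.39 at D2. At D2, KO was the higher in 25 of the 30 genes, against 47.8% of all genes, and was above WT in all 3 replicate numbers for 10 genes, against 14.7% of all genes. The median difference at D2 was 0.17, and it ran from 0.02 without WT D2 replicate 2 to 0.39 without WT D2 replicate 1, with 17 and 27 of the 30 genes higher in KO. The size of the difference was largest for Cyp51, which was at 254, 164 and 158 CPM in WT D2 and at 308, 224 and 214 CPM in KO D2. The groups overlapped, KO was higher in each replicate number, and the log2 difference of 0.39 ± 0.23 (SE) had a 95% confidence interval from -0.09 to 0.87 (unadjusted p of 0.103, limma). Sc5d, a sterol desaturase, was at 54.3, 39.0 and 42.0 CPM in WT D2 and at 61.0, 52.6 and 49.0 CPM in KO D2, a log2 difference of 0.28 ± 0.17 (unadjusted p of 0.133, limma). With the replicate number as a block, Cyp51 had a p of 0.0302 and Sc5d of 0.031, and neither passed after adjustment (adjusted p = 0.905 for both, limma). Insig2 was the only gene of the 30 whose D2 libraries did not overlap between the genotypes (2.35% of all genes were higher without overlap), and its difference was 0.18. The summed muscle genes were lower in KO than in WT in the same D2 libraries, as given above, and their part in these differences was not tested. Over the 30 genes, the 95% confidence intervals at D2 reached from -1.01 to 1.19, so the intervals of some genes held a difference of 2 times.

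**Figure D5:**
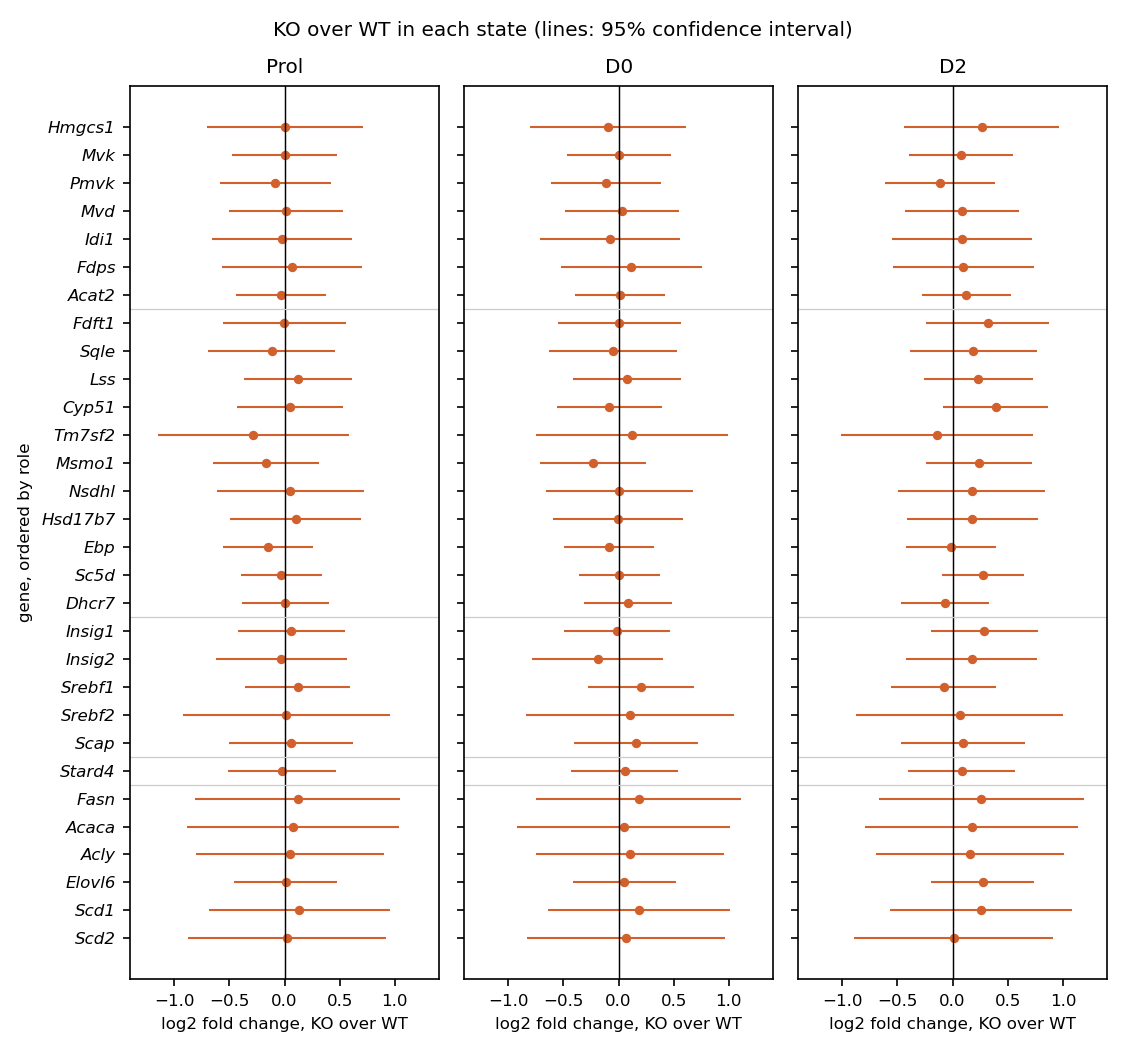
Log2 fold change of KO over WT (horizontal axes) for each of the 30 genes (vertical axis, ordered by role) in Prol, D0 and D2, with 95% confidence intervals as lines. The intervals are from the fit without the replicate number as a block and include 0 for each gene and state, and at D2 25 of the 30 points lie to the right of 0. With the block, Cyp51 and Sc5d at D2 had an unadjusted p of 0.0302 and 0.031 (limma), and neither passed after adjustment.

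The difference between the genotypes in the change from D0 to D2 was tested directly. None of the 30 genes passed, against 0% of all genes, and none had an unadjusted p under 0.05 with limma, while 315 (1.78%) of all genes did. The estimate was above 0, a larger change in KO, for 22 of the 30 genes, against 45.4% of all genes. It was largest for Cyp51 (0.47, 95% confidence interval -0.20 to 1.15, unadjusted p of 0.156, limma) and Msmo1 (0.47, interval -0.21 to 1.15, unadjusted p of 0.162, limma). Pmvk, Insig2 and Stard4, which passed in KO and not in WT, were therefore not shown to differ between the genotypes.

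A wider list of 44 genes of sterol and lipid handling, none of them among the 30, gives the surroundings, and 42 of them were tested. Mlxipl was among those not analysed here. From D0 to D2, 16 rose and 4 fell in WT, against 14.7% and 11.3% of all genes. In KO, 15 rose and 4 fell, against 15.3% and 12.9%. The falls were thus not more common in this list than among all genes. The median log2 fold changes were 0.46 and 0.53. Of these genes, 19 passed in both genotypes, 15 higher and 4 lower. When single libraries were left out, and under the other alternatives except those added later, 7 of the 19 calls were kept throughout in WT and 8 in KO, and the 7 kept in both genotypes included Abca1, Acsl3, Acss2, Mylip, Npc2 and Slc25a1.

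Of the 2 sterol exporters on the list, Abca1 passed the test and Abcg1 did not (log2 differences of 1.95 ± 1.01 in WT and 2.16 ± 1.01 in KO, SE; adjusted p = 0.179 and 0.128). Abca1, the exporter of cellular cholesterol, was at 1.39, 0.0516 and 0.137 CPM in WT D0 and at 25.3, 5.52 and 11.6 CPM in WT D2. In KO, Abca1 was at 0.985, 0.248 and 0.0807 CPM at D0 and at 42.4, 19.5 and 14.2 CPM at D2. All D2 libraries were above all D0 libraries, and some D0 libraries were at or near 3 counts, so the fold is not given. Mylip, which encodes a ubiquitin ligase and, like Abca1, is a target of the liver X receptors, was at 3.84, 1.88 and 1.86 CPM in WT D0 and at 37.2, 16.4 and 20.1 CPM in WT D2. Mylip rose by 3.28 ± 0.37 (SE; adjusted p = 1.25e-05) in WT and by 3.03 ± 0.37 (adjusted p = 2.33e-05) in KO. Npc2 and Npc1, which move cholesterol out of lysosomes, rose by 1.23 and 0.98 in WT and by 1.65 and 1.00 in KO. Leaving aside the alternatives added later, the Npc1 call was lost in 5 of 13 in WT (only the groups compared, or without D0 replicate 2 or 3 or D2 replicate 1 or 3; adjusted p of up to 0.131) and in 3 in KO (only the groups compared, or without D0 replicate 2 or D2 replicate 1; up to 0.0981). Nr1h3, a liver X receptor with low values (0.0915 to 0.944 CPM), and Soat1, which esterifies cholesterol, passed in neither genotype (adjusted p = 0.06 to 0.779). Nr1h2, the other liver X receptor, rose by 0.71 in WT and by 0.52 in KO. Of the same 13 alternatives, the Nr1h2 call was lost in 1 in WT and 3 in KO (adjusted p of up to 0.0906 and 0.136, limma).

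On the fatty acid side of the wider list, Fads2 and Fads1, desaturases of polyunsaturated fatty acids, rose by 1.54 and 0.80 in WT and by 1.47 and 0.96 in KO. Of the same 13 alternatives, the Fads1 call was lost in 6 in WT and 3 in KO, in each genotype among them without D0 replicate 2 and without D2 replicate 1, and in WT also without replicate 3 of D0 or of D2 (adjusted p of up to 0.177 and 0.0881), and the Fads2 call was lost in 1 in each genotype, without D0 replicate 2 (adjusted p = 0.0507 and 0.0539). Me1, Gpam and Elovl5, other genes of fatty acid and glycerolipid synthesis, passed in neither genotype, with log2 differences of -0.34 to 0.12. Acss2, which makes acetyl-CoA from acetate, rose by 1.78 and 1.23, and in KO it did not pass without replicate 2 or 3 in all groups (adjusted p = 0.132 and 0.105). The 4 genes that fell in both genotypes were Nfya and Nfyb, subunits of NF-Y, Mbtps2, a protease that cuts SREBPs, and Erlin1, a protein of the endoplasmic reticulum. Nfya was at 95.3, 70.6 and 101.7 CPM in WT D0 and at 59.1, 50.2 and 57.0 CPM in WT D2, and fell by 0.67 ± 0.20 (SE) on the log2 scale. Without replicate 3 in all groups none of the 4 passed in either genotype (adjusted p = 0.103 to 0.427, limma). Of the 13 other alternatives, the Nfya call was lost in 6 in WT and 0 in KO, that of Nfyb in 1 and 6, that of Erlin1 in 5 and 4 and that of Mbtps2 in 1 and 1. The highest adjusted p among them was 0.116 for Nfya in WT, 0.192 for Nfyb in KO, 0.165 for Erlin1 in WT and 0.0773 for Mbtps2 in KO. Under scaling to library totals, Nfya in WT (-0.54, adjusted p = 0.0548) and Nfyb in KO (-0.47, adjusted p = 0.0679) did not pass. Single libraries that ended a call were replicates 1 and 3 of D0 and 2 and 3 of D2 for Nfya in WT and for Nfyb in KO, replicates 2 and 3 of D0 and of D2 for Erlin1 in WT, and replicates 1 and 3 of D0 and 2 of D2 for Erlin1 in KO.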

How the data were processed

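RNA of 18 libraries, 3 for each of 6 groups of genotype and state, was sequenced as single-end reads after polyA selection with a stranded kit. After trimming (cutadapt), the authors aligned reads to GRCm38 transcripts with NextGenMap. RSEM gave them expected counts, which divide a read that matches several transcripts, and tximport collapsed these to genes. The authors dropped genes of low count and computed TMM factors with edgeR. The deposited values are CPM, that is, 0.5 was added to each expected count before division by the TMM-scaled library total. This was checked by recovering the expected counts (totals of 26437823 to 41619014), on which voom returned the log2 of the deposited values to within 9.7e-08. Values at 3 counts are floors for counting error only.

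Log2 CPM of the 17672 genes that exceeded 5 expected counts in every library of 1 group or more was fitted with limma 3.58.1 in R 4.3.3 (6 groups, eBayes with a variance trend), without a further pseudocount, since the deposited values include 0.5 counts. P-values were adjusted over all genes tested with the Benjamini-Hochberg method, two-sided, and a gene passed at an adjusted p under 0.05. The fit was tested on simulated independent counts with known changes. The simulation had no effect of the replicate number, so it does not cover the shared deviations of same-numbered libraries. Confidence intervals are at 95%. Gene positions are from GENCODE M21, and promoter windows from RefSeq. The 30 genes, the wider list, the marker lists and the comparisons were chosen with earlier results of these data known. Some genes of the wider list are counted but not reported here by name. Values per library are given for the sensing system, Scd1, Scd2, the 3 largest changes in WT D2/D0 of each other role and genes against their role, and those of other members were added after the values were seen.

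Same-numbered libraries deviated together from their group means. The correlation across genes was over 0.1 for all 3 numbers in each comparison except WT D2/D0 and WT D2/Prol. There, replicate 3 was at 0.01 and 0.0393. Replicates 1 and 2 were at 0.45 and 0.47 in WT D2/D0 and at 0.40 and 0.27 in WT D2/Prol. For the replicate block, counts, changed calls and added unadjusted p under 0.05 are given. Standard errors, intervals and p-values of single genes are from the fit without it unless the block is named. The labels do not say what a number shares. The study's model had the sequencing lane as a block, and since the labels give no lane, it was not used here. Results were recomputed with voom weights, with median-of-ratios or library-total scaling, without the filter, with a pseudocount of 1 CPM, with the replicate block, with only the compared groups in the fit, with another call rule (unadjusted p under 0.05, over 1.5-fold, at least 10 CPM) and with each library left out in turn. Voom with a random block, replicate 1 at D2 left out, each replicate number left out of all groups, and the call rule in the study's methods (a log2 fold change over 1.5 in place of 1.5-fold) were added after the data were seen.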

Additional observations from a re-analysis of the deposited data

How the results depend on the processing

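The number of the 30 genes that passed stayed within 1.5 times of the value reported in 72 of 80 combinations of a D2 comparison and an alternative, and none of the genes that rose from D0 to D2 turned in sign under any alternative. Of the other 8, 4 came when replicate 3 was left out of all 6 groups, an alternative added after the data were seen: 10 genes passed in WT D2/D0, 14 in KO D2/D0, 12 in WT D2/Prol and 14 in KO D2/Prol. The other 4 came with the call rule of the study's methods, also added then, under which 13, 16, 13 and 15 genes passed. The share of all genes that rose fell without replicate 3, to 4.91%, 5.4%, 6.88% and 7.62%. Without replicate 2 in all groups the counts were 18, 17, 20 and 18, and without replicate 1 they were 22, 26, 23 and 25. The numbers of all 17672 genes that rose moved in the same fits. They were 1419, 1430, 1944 and 1753 without replicate 2, and 3201, 3283, 3255 and 3442 without replicate 1. With all libraries they were 2593, 2712, 2940 and 3027. In D0/Prol, KO/WT and the difference between genotypes the count was 0 under each alternative, which says nothing of stability. With single libraries left out, the D2 counts ran from 20 to 23, 20 to 26, 20 to 23 and 21 to 24. Of the calls in D2/D0, 17 of 22 in WT and 20 of 25 in KO held under every alternative except those added later, and 10 and 14 under the added fits too.

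With the replicate block, WT D2/D0 gave 25 genes, with Insig2, Stard4 and Pmvk added (adjusted p = 0.00503, 0.00908 and 0.00649, limma). Pairing of its libraries is not shown for replicate 3 (correlation of 0.01, against 0.45 and 0.47 for replicates 1 and 2). KO D2/D0 gave 26, and D2/Prol gave 25 in each genotype. The block also raised the calls over all 17672 genes, higher and lower together, to 7642 in WT D2/D0 and 8126 in KO D2/D0. Without it, 2593 rose and 1997 fell in WT, and 2712 rose and 2285 fell in KO. In D2/Prol, 8431 (WT) and 8580 (KO) of all genes passed with it. The block changed no other call among the 30.

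The sign turned only for genes that had not passed. With single libraries left out, the log2 difference from D0 to D2 ran, in WT and KO, from -0.024 to 0.40 and -0.083 to 0.34 for Scap, -0.395 to 0.305 and -0.285 to 0.41 for Fasn, -0.56 to 0.205 and -0.44 to 0.25 for Acaca and -0.016 to 0.61 and -0.008 to 0.70 for Acly. Without replicate 1 at D2 in both genotypes it was -0.23 and -0.21 for Fasn, -0.30 for Acaca in KO and -0.016 for Acly in WT. Library totals gave 0.013 for Acaca in WT. Leaving out a replicate number in all groups gave -0.14 for Fasn in WT (number 2), -0.008 in KO (numbers 1 and 2), 0.10 for Acaca in WT (number 3), and -0.057 and -0.20 in KO (numbers 1 and 2). The cause was not tested. Depth is no limit for these genes, whose lowest value was 1.98 CPM, but 3 libraries a group and the spread between replicate numbers are.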
